A study of Arabidopsis thaliana with 64 samples.

Results

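The subject is a set of 2557 chromatin sites that anti-Flag pull-downs of tagged ELF3 proteins shared and that anti-Myc pull-downs of ELF3-MYC did not list. They were taken from the 31943 peaks of the ELF3pro::ELF3-Q20 list at 22 °C on chromosomes 1 to 5. A peak was kept if it overlapped, by at least 1 bp, a peak in each of 4 other anti-Flag lists at 22 °C, from BdELF3-ox, ELF3pro::ELF3-BdPrD and 2 samples of StELF3-ox. It was dropped if it touched a peak of either ELF3pro::ELF3-MYC elf3-1 list at 17 °C or of either INPUT list. The 5 anti-Flag lists had 6866 peaks of the ELF3-Q20 list in common (21.5% of it). Of these, 2221 also overlapped an INPUT peak. Among the other 4645, 554 lay in both ELF3-MYC 17 °C lists, 1534 lay in 1 of them, and the 2557 sites (37.2% of the common peaks, 8.00% of the list) lay in neither.

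The series holds 64 Arabidopsis thaliana seedling samples, 26 from chromatin immunoprecipitation (ChIP) and 38 from RNA sequencing, and 25 peak lists were used. The ChIP lines carried ELF3 from its own promoter (ELF3pro::), with a stretch labelled Q15 or Q20, with a domain labelled BdPrD, or as the BdELF3 protein of the grass Brachypodium, or carried overexpressed ELF3 of Arabidopsis (ELF3-ox), Brachypodium (BdELF3-ox) or potato (StELF3-ox). ELF3-ox was pulled down with anti-HA, ELF3-MYC with anti-c-Myc and the other lines with anti-Flag. ELF3-MYC was in the elf3-1 mutant, alone or crossed to ELF4-ox, and the INPUT samples, from Col-0 at 17 °C and a line labelled ELF3-OX at 27 °C, had no pull-down. All lines are labelled with Col-0 as the cultivar. The RNA groups used for single-line comparisons were elf3-1 (2 libraries, 1 each at 22 and 27 °C), elf3-1 X ELF4-ox (2, likewise), StELF3-ox (3, 1 each at 12, 22 and 27 °C), BdELF3-ox (5, 1 at 12, 1 at 22 and 3 at 27 °C), ELF3-ox (3, 1 each at 12, 22 and 27 °C), ELF4-ox (2, 1 each at 22 and 27 °C) and wild-type Col-0 (3, 1 at 22 and 2 at 27 °C). The fit and the comparison of 27 with 22 °C also used RNA of ELF3pro::ELF3-Q0, ELF3pro::ELF3-Q7, ELF3pro::ELF3-Q21, ELF3pro::BdELF3, the elf4-2 mutant and elf4-2 X ELF3-ox. Each library came from pooled seedlings.

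ELF3 is a scaffold protein of the evening complex, in which it joins ELF4 to the DNA-binding protein LUX. The complex represses clock genes such as PRR9, PRR7, GI and LUX, and growth genes such as PIF4 and PIF5, in the evening, and it acts less at warm temperature. ELF3 itself has no known DNA-binding domain. In plant and animal ChIP alike, open chromatin at highly transcribed genes can be recovered with many antibodies, which is why a pull-down from plants that lack the tag is a common control. No anti-Flag pull-down from plants without a Flag tag was analysed here.

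The sites were mostly weak peaks near genes. MACS2, the peak caller, gave them a median fold enrichment over local background of 2.19 (1.7 to 2.84 from the 10th to the 90th percentile), against 2.34 for the 554 common peaks that lay in both ELF3-MYC 17 °C lists. Their median width was 193 bp, against 272 bp. At a q-value under 0.05, 309 of the 2557 sites passed (12.1%), against 143 of those 554 peaks (25.8%), 24.4% of the common peaks with an INPUT peak and 6% of the whole list. Ranked by −log10 p within the ELF3-Q20 list, the sites had a median rank of 9970. In the other 4 anti-Flag lists their best overlapping peaks had median ranks of 5079 to 8156, and the highest of them was rank 1 in BdELF3-ox 22 °C. Only 40 sites were among the first 2000 peaks of all 5 anti-Flag lists.

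These values chose the sites and describe them, with no test. The edge of the rule was narrow. The gap between a site and the nearest ELF3-MYC 17 °C peak had a median of 462 bp, 358 sites (14%) lay within 100 bp of one, and the largest gap was 14746 bp. The site on chromosome 3 at 9709817–9710005 (fold 2.58), in the leucine-rich repeat gene PIRL2, abutted an ELF3-MYC peak without sharing a base. The peak on chromosome 1 at 25049428–25049609 (fold 2.13), in RBCS1A, a small-subunit gene of Rubisco, shared 1 bp with an ELF3-MYC peak and was left out. An INPUT peak lay within 500 bp of 50.3% of the sites, against 50.5% of the peaks in both ELF3-MYC lists and 61.9% of all ELF3-Q20 peaks. The first 2 sets exclude peaks that overlap INPUT and the last includes them. The lower shares are therefore partly set by the rule.

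Many of the strongest sites lay at highly transcribed genes. The site of highest rank (25 in the list, fold 6.59) covered part of GRP-3, a gene for a glycine-rich cell wall protein, on chromosome 2 at 2026032–2026671, and a second site in the same gene lay at 2026782–2027387 (rank 75, fold 4.31). The next were in HSPRO2, a defence gene (chromosome 2, 16700266–16702151, fold 6.11), in STP1, a monosaccharide transporter gene (chromosome 1, 3777274–3778631, fold 5.7), and in the polyubiquitin gene UBQ10 (chromosome 4, 2718860–2719786, fold 5.9). A site in AT2G05540, another glycine-rich protein gene, had a fold of 5.74. Further down the 12 strongest were GRP7, which encodes a clock-regulated RNA-binding protein (chromosome 2, 9265068–9265842, fold 4.77), IAGLU, an auxin glucosyltransferase gene (chromosome 4, 8877316–8878573, fold 4.3), EXO, a growth gene (chromosome 4, 5740284–5741493, fold 4.33), and PRSL1, which had no count in any Col-0 library. A pair of the 12 had no annotated gene end within 1000 bp, among them a peak 116 bp from the start of chromosome 3.

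Most of these 12 sites were in every other anti-Flag list. The GRP-3 site of rank 25 and the UBQ10 site were each in 9 of the 10 anti-Flag lists outside the rule, in 0 of 3 anti-HA lists and in 0 of 3 anti-Myc lists. The HSPRO2 site was in 10, 2 and 2 of them. The GRP7 and EXO sites were each in 10, 3 and 1, so absence from the ELF3-MYC 17 °C lists did not mean absence from every list made without anti-Flag.

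Across the 16 lists that the rule did not use, the sites were frequent in anti-Flag lists and infrequent in the others. On average 69.5% of the sites had a peak in an anti-Flag list outside the rule, 17.8% in an anti-HA list and 19.3% in an anti-Myc list. The 554 common peaks in both ELF3-MYC 17 °C lists, chosen by the same 5 anti-Flag lists, had 74.2%, 30.3% and 50.2%. Over all ELF3-Q20 peaks, which were not chosen by the other anti-Flag lists, the shares were 39.4%, 15.9% and 25%. The 2221 common peaks with an INPUT peak had 75.1%, 25.6% and 39.7%. The rule asked for a peak in 4 other anti-Flag lists, and 5 of the 10 anti-Flag lists outside it came from lines that it used, so a high anti-Flag share is not independent of the choice of the sites. Every anti-Myc list outside the rule came from an ELF3-MYC line, so the anti-Myc share is not independent of it either. The anti-HA lists were not used to choose any of these sets.

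Per list, the anti-Flag share ranged over the sites from 39.8% (95% Wilson interval 37.9 to 41.7%) in ELF3pro::ELF3-Q15 at 27 °C to 79.9% (78.3 to 81.4%) in ELF3pro::BdELF3 at 22 °C. The anti-HA shares were 18.3% in ELF3-ox at 22 °C and 13.8% and 21.1% in its 2 lists at 27 °C. The anti-Myc shares were 23.5% and 23.1% in the cross to ELF4-ox at 17 and 27 °C and 11.3% in ELF3-MYC elf3-1 at 27 °C. All 10 anti-Flag lists held 299 of the sites (11.7%), and 6 sites were in none of them. None of the 6 anti-HA and anti-Myc lists held 869 of the sites (34%), against 61 of the 554 peaks in both ELF3-MYC 17 °C lists (11%), 332 of the 2221 common peaks with an INPUT peak (14.9%) and 31.1% of all ELF3-Q20 peaks. The intervals cover counting error only, and neighbouring sites at 1 gene are not independent.

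**Figure D1:**
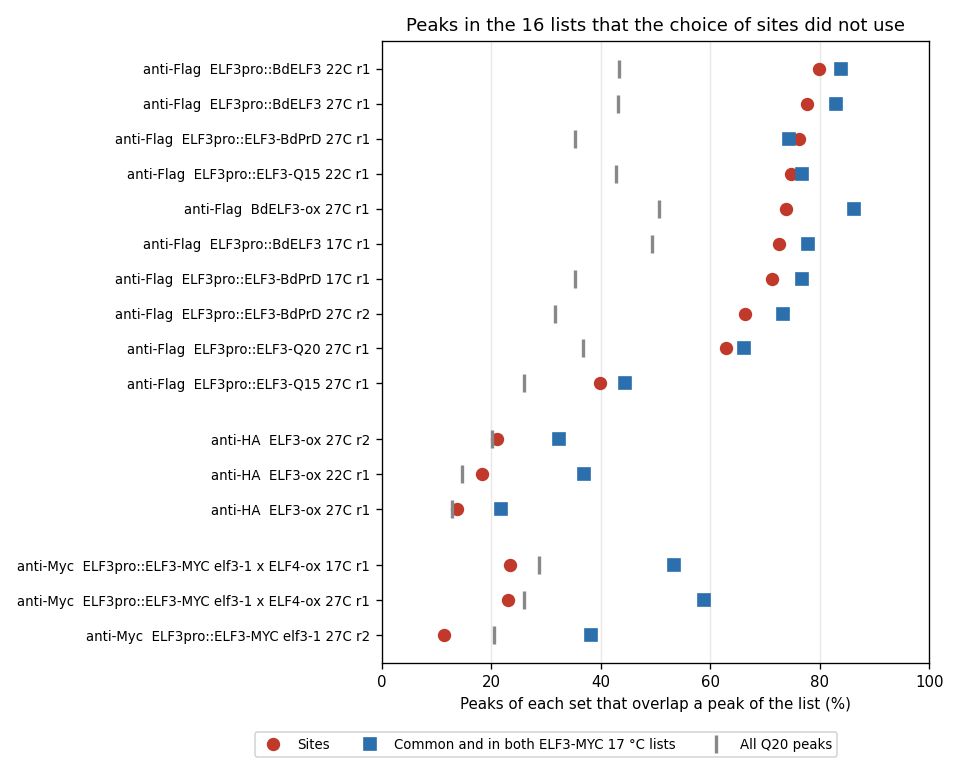
Share of peaks (%, horizontal axis) that overlap a peak in each of 16 lists outside the rule, grouped by antibody, for the 2557 sites (circles), the 554 common peaks in both ELF3-MYC 17 °C lists (squares) and all 31943 ELF3-Q20 peaks (bars). The sites lie between 39.8% and 79.9% in anti-Flag lists, and between 11.3% and 23.5% in anti-HA and anti-Myc lists.

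Antibody, tag, temperature and the number at the start of the sample title moved together in the rule. The 5 anti-Flag lists came from plants at 22 °C with title prefix 176, and the ELF3-MYC lists from plants at 17 °C with prefixes 189 and 192, so these cannot be told apart by the rule alone. Outside the rule they were partly crossed. The 4 anti-Flag lists of prefix 192, from ELF3pro::BdELF3 and ELF3pro::ELF3-BdPrD at 17 and 27 °C, held 72.5%, 77.6%, 71.3% and 66.3% of the sites, while the anti-Myc list of prefix 192 held 11.3%. The anti-HA lists of prefix 176 held 18.3% and 13.8%, and the anti-Flag list ELF3pro::ELF3-BdPrD at 17 °C held 71.3%. The same lists differed over all ELF3-Q20 peaks too, with 49.4%, 43.2%, 35.2% and 31.6% in the 4 anti-Flag lists of prefix 192, 20.5% in its anti-Myc list, and 14.7% and 12.8% in the anti-HA lists of prefix 176. Since the rule removed ELF3-MYC peaks, the low anti-Myc share of the sites is partly set by their choice. Antibody and tag were never crossed, and the depth of the lists is unknown.

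**Figure D2:**
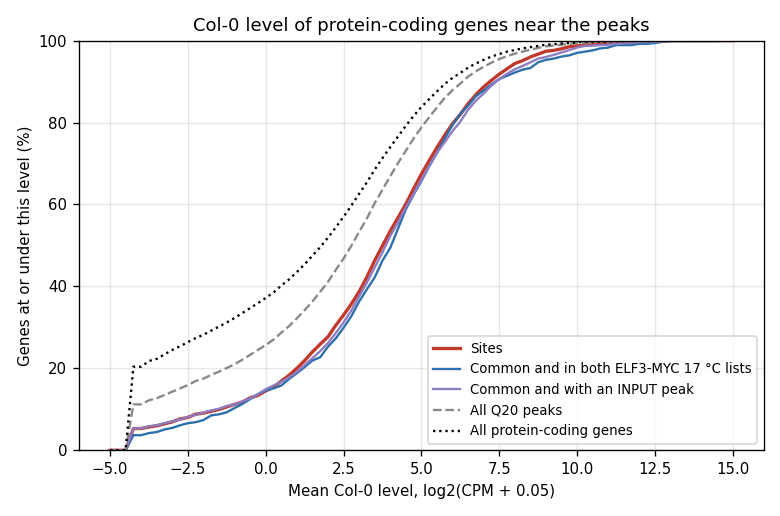
Cumulative share of protein-coding genes (%, vertical axis) by mean Col-0 level (log2 of CPM plus 0.05, n = 3 libraries) for genes near the sites, near common peaks in both ELF3-MYC 17 °C lists, near common peaks with an INPUT peak, near any ELF3-Q20 peak and for all protein-coding genes. The curves of the 3 common sets run close together, with medians of 13.5, 16.3 and 14.4 CPM, to the right of all ELF3-Q20 peaks (6.7 CPM) and all protein-coding genes (3.42 CPM).

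The genes at the sites were more highly expressed than most. A gene was called near when either of its ends lay within 1000 bp of a summit, since the gene table used gives no strand. Such a gene was found for 2413 sites (94.4%), against 91.3% of the peaks in both ELF3-MYC lists and 79.9% of all ELF3-Q20 peaks, and 76.8% of the summits lay inside a gene, against 70.8% and 85%. In all 3861 genes were near a site, 3355 of them protein coding. Each RNA read marks a transcript's 3' end, so levels, given as CPM (read counts scaled to the size of the library), were not divided by gene length. The median Col-0 level of the protein-coding genes near a site was 13.5 CPM (SD of the median over 3 Col-0 libraries 0.287), against 16.3 CPM near peaks in both ELF3-MYC lists, 14.4 CPM near common peaks with an INPUT peak, 6.7 CPM near all ELF3-Q20 peaks and 3.42 CPM over all protein-coding genes. The highest 10% of protein-coding genes began at 57.7 CPM, and 741 of the genes near a site were among them (22.1%), against 13.2% of those near any ELF3-Q20 peak. In this respect the sites resembled the other anti-Flag common peaks, with or without ELF3-MYC or INPUT peaks.

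Among the sites, the level of nearby genes followed the strength of the peak, but only at the top. The 21 sites ranked 1 to 200 had a median of 85.3 CPM over 20 nearby protein-coding genes, the 144 ranked 201 to 1000 had 23.6 CPM, and those ranked 10001 or lower had 13.5 CPM. The peaks ranked 1 to 200 that lay in both ELF3-MYC lists had 16.3 CPM, close to the 17.1 CPM of that set from rank 10001 on. Those with an INPUT peak had 50 CPM at rank 1 to 200 and 12.7 CPM from rank 10001 on. All ELF3-Q20 peaks had 39.4 CPM and 6.91 CPM in these ranks, so the fall was not particular to the sites. These are descriptions with no test. The highest Col-0 levels near a site were GRP7 with 27141 CPM, then DRT112 (plastocyanin, 7859 CPM) and SSR16 (a plastid ribosomal protein, 6454 CPM). PSBO1 (photosystem II, 6248 CPM) and CP12-1 (a regulator of the Calvin cycle, 5358 CPM) followed.

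**Figure D3:**
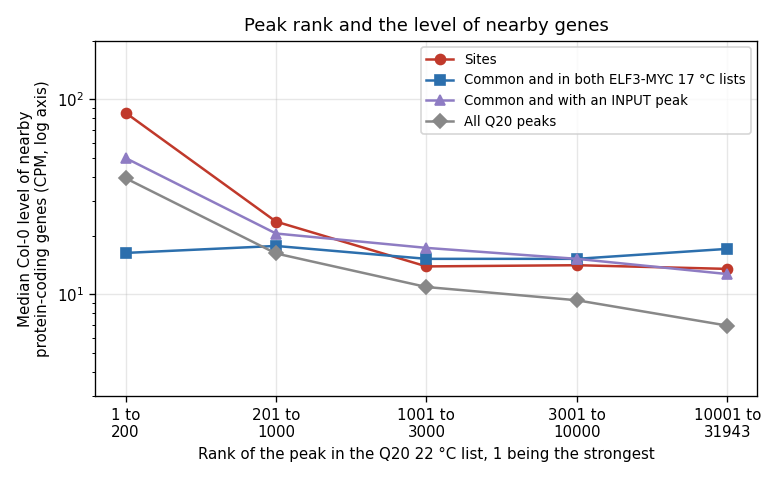
Median Col-0 level of nearby protein-coding genes (CPM, log axis) by the rank of the peak in the ELF3-Q20 22 °C list, for the sites and 3 comparison sets. The line of the sites starts at 85.3 CPM in the first 200 ranks and ends at 13.5 CPM, while that of peaks in both ELF3-MYC 17 °C lists starts at 16.3 and ends at 17.1 CPM. The lines of common peaks with an INPUT peak and of all ELF3-Q20 peaks also fall, from 50 to 12.7 and from 39.4 to 6.91 CPM.

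The listed housekeeping genes were frequent near the sites, as they were near common peaks with an INPUT peak, and evening complex targets were not frequent near the sites. Of 14 abundant housekeeping genes on a list, 8 were near a site (57.1%), against 3355 of all 27432 protein-coding genes (12.2%). Of the same 14, 6 were near a common peak with an INPUT peak, against 3060 of all protein-coding genes, and 1 was near a peak in both ELF3-MYC 17 °C lists, against 787. The list was chosen with earlier results of these data known. Its genes are abundant, as were many genes near the sites, so all protein-coding genes are not a matched background. The 8 near a site were UBQ10 and UBQ3 (ubiquitin), GAPC1 and GAPC2 (glycolysis), TCTP (a translationally controlled protein), HSC70-1 (a chaperone) and the elongation factor genes EF1A at AT5G60390 and AT1G07940. Of these, UBQ10, UBQ3, HSC70-1 and AT5G60390 were also near a common peak with an INPUT peak. UBQ3 was also near a peak in both ELF3-MYC 17 °C lists, and GAPC1 and HSC70-1 were near a common peak in 1 of them. Of the 18 genes on the list of evening complex targets and clock genes, only RVE8, a morning-phased activator, was near a site, while 6 (GI, PRR7, BOA, CCA1, LNK2 and LNK3) were near a peak in both ELF3-MYC 17 °C lists and 9 were near a common peak with an INPUT peak. None of the 6 photosynthesis genes on another list was near a site, while 4 were near a peak in both ELF3-MYC 17 °C lists and 3 were near a common peak with an INPUT peak. The rule dropped such peaks, so the scarcity of both lists near the sites is partly set by the choice of the sites. The absence holds for the listed photosynthesis genes only, since DRT112, PSBO1 and CP12-1, which are not on that list, were near a site. PIL1, a shade-induced growth gene, was the only member near a site of 10 genes for PIF and auxin growth. Small RNA genes of the nucleus were also represented, with 45 of 287 snoRNA genes (15.7%) and 15 of 82 snRNA genes (18.3%) near a site. The share was 12.2% for protein-coding genes and 8.8% for tRNA genes (55 of 625). The common peaks with an INPUT peak had 37 snoRNA and 5 snRNA genes nearby. Those in 1 ELF3-MYC 17 °C list had 35 and 5, and those in both had 1 and 3. Ubiquitin and EF1A genes have close copies, so counts and peaks of these families may be shared between copies.

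Loss of ELF3 was compared in elf3-1 with Col-0 and, in plants that overexpress ELF4, in elf3-1 X ELF4-ox with ELF4-ox. No library is shared between these comparisons. ELF3 transcripts were at 17.5 and 26.6 CPM in elf3-1, against 29.9, 22.4 and 17.2 CPM in Col-0. These levels overlap, so 3' counts of ELF3 do not check the mutant label. Known targets of the complex did separate: PIF5 had 134 and 118 CPM in elf3-1, against 19.4, 36.9 and 26.4 CPM in Col-0 (log2 change 2.65, SE 0.44, adjusted p 0.00481, edgeR). Of 17 tested genes on the evening complex and clock list, 6 rose and 1, LHY, fell in elf3-1, with a median log2 change of 2.03, against −0.03 over all tested genes.

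Genes near the sites responded to elf3-1 about as often as any gene. Of the 3104 that were tested, 21 passed an adjusted p under 0.05 in elf3-1 against Col-0 (0.677%; edgeR quasi-likelihood test, Benjamini-Hochberg over 19587 genes), where 0.699% of all tested genes passed. Of these 21, 8 rose (0.258% of the genes near a site, against 0.403% of all genes) and 13 fell (0.419%, against 0.296%), and the median log2 change of the genes near the sites was −0.07. Near the peaks in both ELF3-MYC 17 °C lists, 20 of 729 passed (2.74%), 18 of them higher in elf3-1. The sets share genes: of the 3861 genes near a site, 144 were also near a peak in both ELF3-MYC lists and 686 near a common peak with an INPUT peak. At an unadjusted p under 0.05 the share was 13.9% near the sites and 13.9% over all genes, against 19.5% near those peaks. So the calls near the sites, higher and lower together, did not exceed the background, while those near peaks in both ELF3-MYC lists did so by number. Taken alone, the lower calls near the sites had a share above the background and the higher calls a share under it.

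The same was seen in the ELF4-ox background. In elf3-1 X ELF4-ox against ELF4-ox, 14 of 3104 genes near a site passed (0.451%), where 0.684% of all tested genes passed. Of the 14, 3 were higher (0.0966% of the genes near a site, against 0.449% of all genes) and 11 lower (0.354%, against 0.235%). At an unadjusted p under 0.05 the share was 6.89%, against 7.88% of all genes. Near the peaks in both ELF3-MYC lists 25 of 729 passed (3.43%), 21 of them higher. With DESeq2 the genes near a site numbered 50 (1.61%, all genes 1.7%) in elf3-1, 15 higher (0.483%, all genes 0.868%) and 35 lower (1.13%, all genes 0.832%). In elf3-1 X ELF4-ox they numbered 33 (1.06%, all genes 1.28%), 16 higher (0.515%, all genes 0.899%) and 17 lower (0.548%, all genes 0.383%). With both tools and in both comparisons, the share higher was under that of all genes and the share lower was above it. By edgeR this was not particular to the sites. Near the common peaks in 1 ELF3-MYC 17 °C list, 0.259% were higher and 0.57% lower in elf3-1. In elf3-1 X ELF4-ox, 0.259% were higher and 0.363% lower near those peaks. For the sites, the balance of higher and lower counts in elf3-1 X ELF4-ox differed between the tools. These shares were compared without a test.

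**Figure D4:**
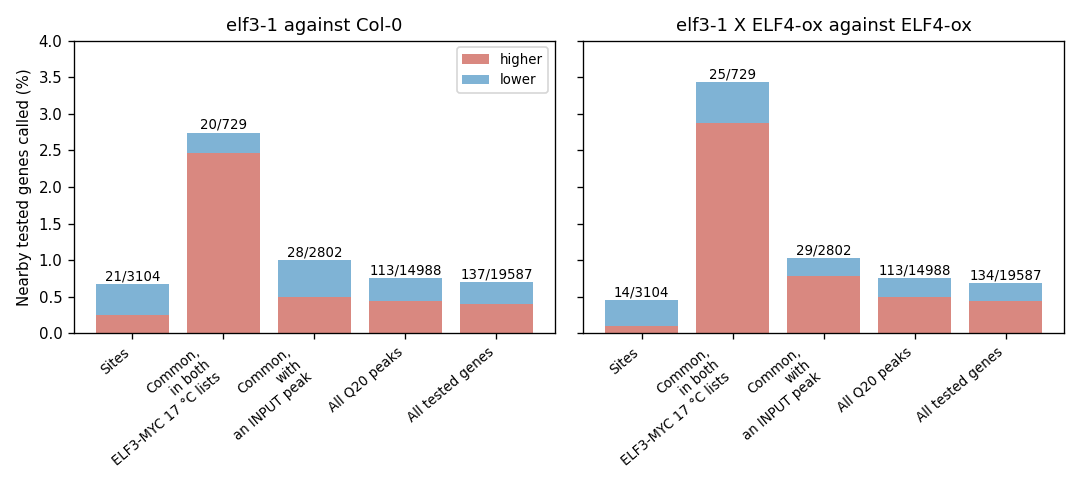
Share of nearby tested genes that passed the edgeR test (%, vertical axis), split into higher and lower, for the sites, 3 comparison sets and all tested genes, in elf3-1 against Col-0 (left) and elf3-1 X ELF4-ox against ELF4-ox (right), with counts above the bars. The bars of the sites reach 0.677% and 0.451%, close to or under all tested genes (0.699% and 0.684%), and those of peaks in both ELF3-MYC 17 °C lists reach 2.74% and 3.43%.

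The counts rest on few libraries. Leaving out each single library named next lowered the calls over all tested genes too. Without Col-0 at 27 °C replicate 1, 0.22% of all tested genes passed in elf3-1, against 0.193% near a site. Without replicate 2 these shares were 0.194% and 0.129%. Leaving out elf3-1 at 22 °C left 0 genes near a site, elf3-1 at 27 °C left 3, and Col-0 at 27 °C replicate 1 or 2 left 6 or 4. In the ELF4-ox background, leaving out either elf3-1 X ELF4-ox library left 2, and leaving out ELF4-ox at 22 °C or 27 °C left 6 or 0. Leaving out 2 libraries low in root markers (BdELF3-ox at 27 °C replicate 2 and ELF3pro::BdELF3 at 27 °C), which enter the fit through the spread and the terms for temperature and title prefix, gave 76 (2.45%), with 2.79% over all genes and 7.43% near peaks in both ELF3-MYC lists. Nothing in the labels says that libraries of a group came from separate cultures, so p-values measure the spread between these libraries only. In seedlings in bulk, fewer cells of a type and less RNA per cell cannot be told apart. The 4 root markers summed to 1970 to 1995 CPM in elf3-1, against 1270 to 2072 CPM in Col-0, and to 1542 to 1920 CPM in elf3-1 X ELF4-ox, against 1328 to 1334 CPM in ELF4-ox. The 6 photosynthesis markers summed to 13621 to 19216 CPM in elf3-1, against 10952 to 25107 CPM in Col-0. The part of these markers in the results was not tested.

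Of the called genes near a site, 7 passed in both comparisons (33.3% of 21 and 50% of 14), all in the same direction. Over all tested genes, 57 passed in both (41.6% of 137 and 42.5% of 134), also all in the same direction. The elf3-1 and Col-0 libraries share title prefix 181 at 22 °C only, with 1 library each, and elf3-1 X ELF4-ox and ELF4-ox share prefix 178 at 22 °C and 177 at 27 °C, with 1 library each, so a single prefix gives no test.

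The strongest site among these 7 genes was at GRP7, part of the clock-driven GRP7 loop. GRP7 had 8091 and 6568 CPM in elf3-1, against 29344, 21872 and 30206 CPM in Col-0. It had 10488 and 9541 CPM in elf3-1 X ELF4-ox, against 33591 and 22343 CPM in ELF4-ox. On the log2 scale it fell by 1.97 in elf3-1 (SE 0.33, adjusted p 0.00506) and fell by 1.47 in elf3-1 X ELF4-ox (SE 0.32, adjusted p 0.0314, edgeR). GRP7 was also near a common peak that lay in both ELF3-MYC lists and near one with an INPUT peak.

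ST2A, a sulfotransferase gene that acts on hydroxyjasmonate, was the gene of this group with the next strongest site (chromosome 5, 2175622–2175963, rank 316, fold 3.51). Its level was 9.68 CPM at 22 °C and 32.6 CPM at 27 °C in elf3-1, against 1.88 CPM at 22 °C and 3.55 and 6.53 CPM at 27 °C in Col-0. In elf3-1 X ELF4-ox it was 8.52 and 29.7 CPM, against 1.66 and 2.85 CPM in ELF4-ox. It rose in both, with log2 changes of 2.40 (SE 0.37, adjusted p 0.0024) and 2.90 (SE 0.40, adjusted p 0.000656, edgeR). The site was in 5 of 10 other anti-Flag lists and in none of the anti-HA or anti-Myc lists outside the rule, and no other common peak set used here had a peak near ST2A. An ELF3-MYC 17 °C peak lay 106 bp from the site.

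ENODL2, an early nodulin-like gene, had a site near the foot of the list (rank 31195, fold 1.61). It had 145 and 149 CPM in elf3-1, against 424, 252 and 431 CPM in Col-0, and 224 and 159 CPM in elf3-1 X ELF4-ox, against 526 and 287 CPM in ELF4-ox. On the log2 scale it fell by 1.30 (SE 0.20, adjusted p 0.0024) and, in the ELF4-ox background, fell by 1.05 (SE 0.19, adjusted p 0.00848). LTP5, for a lipid transfer protein, had 373 and 588 CPM in elf3-1, against 929, 894 and 1091 CPM in Col-0, and fell by 1.15 and, in the ELF4-ox background, by 1.00. AT1G29670, for a GDSL-type lipase family protein, had 39.3 and 42.7 CPM in elf3-1, against 89.2, 66.9 and 65.5 CPM in Col-0, and fell by 0.93 and, in the ELF4-ox background, fell by 1.29. These 3 genes were lower in every elf3-1 library, with or without ELF4-ox, than in any library of the matching control.

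AT5G23240, for a DnaJ-domain protein, had 2.66 and 1.52 CPM in elf3-1, against 7.26, 8.34 and 17 CPM in Col-0, and fell by 2.31 and, in the ELF4-ox background, fell by 2.27. It overlaps AT5G03585 and AT5G23235, and without a stated strand setting reads may be shared between them. ABF3, a transcription factor gene of abscisic acid signalling, had 48.8 and 89.2 CPM in elf3-1, against 26.5, 59.1 and 80.3 CPM in Col-0. It had 39 and 67.8 CPM in elf3-1 X ELF4-ox, against 21 and 32.1 CPM in ELF4-ox. It rose by log2 changes of 0.98 (SE 0.21, adjusted p 0.0268) and 0.99 (SE 0.22, adjusted p 0.0317). The elf3-1 and Col-0 libraries of ABF3 overlap between temperatures and are higher in elf3-1 at each temperature.

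**Figure D5:**
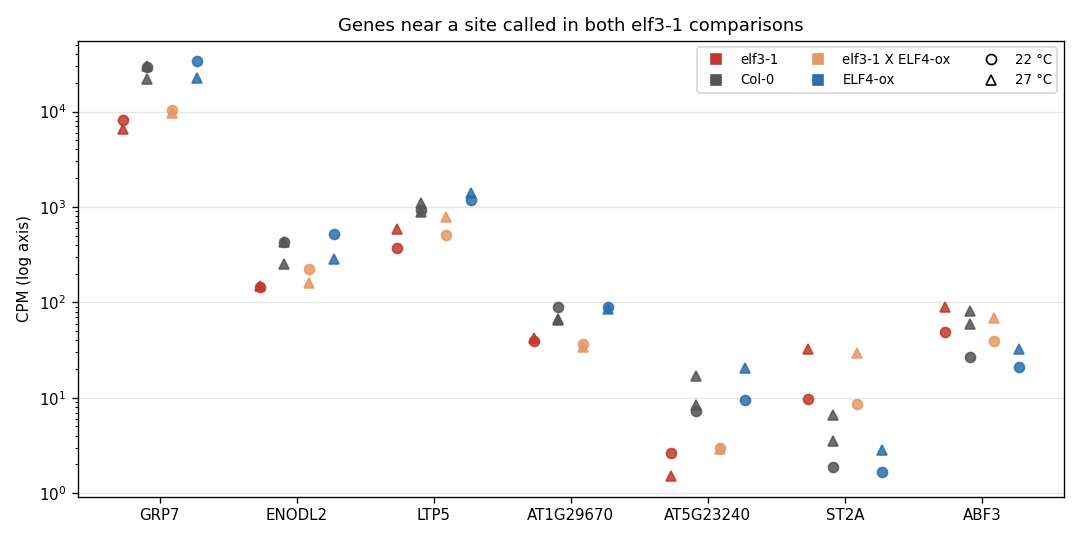
Level (CPM, log axis) of the 7 genes near a site that passed in both elf3-1 comparisons, 1 point per library, in elf3-1, Col-0, elf3-1 X ELF4-ox and ELF4-ox at 22 °C (circles) and 27 °C (triangles). GRP7, ENODL2, LTP5, AT1G29670 and AT5G23240 are lower without ELF3, and ST2A and ABF3 are higher.

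Other genes near a site passed in elf3-1 alone or in the cross alone, and the difference between the comparisons was not tested. In elf3-1, AT2G21130, a cyclophilin gene, had 53.2 and 47 CPM, against 130, 87.7 and 108 CPM in Col-0 (log2 change −1.24, adjusted p 0.00828), and −0.49 in the ELF4-ox background (adjusted p 0.562). AT1G68620 had 6.17 and 7.3 CPM in elf3-1, against 0.751, 1.06 and 1.61 CPM in Col-0 (log2 change 2.83, adjusted p 0.0169). AT5G14920, the gibberellin-regulated gene GASA14, had 115 and 285 CPM in elf3-1 X ELF4-ox, against 511 and 716 CPM in ELF4-ox (log2 change −1.74, adjusted p 0.011), and a log2 change of −1.35 in elf3-1 (adjusted p 0.0562). ASN2, for asparagine synthetase, fell by 1.15 in elf3-1 X ELF4-ox (adjusted p 0.0437) and had a log2 change of −0.99 in elf3-1 (adjusted p 0.0848).

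Genes at the strongest sites and the listed genes near sites mostly did not pass by edgeR. GRP-3 had 2133 and 2018 CPM in elf3-1, against 5173, 5615 and 4993 CPM in Col-0, a log2 change of −1.31 that missed the threshold by edgeR (adjusted p 0.0883) and passed it by DESeq2 (adjusted p 0.015). In elf3-1 X ELF4-ox its log2 change was −1.20 (adjusted p 0.176 by edgeR and 0.0528 by DESeq2). HSPRO2 had 160 and 273 CPM in elf3-1, against 68.6, 112 and 71.5 CPM in Col-0 (log2 change 1.51, adjusted p 0.107 by edgeR and 0.0369 by DESeq2), and its log2 change in elf3-1 X ELF4-ox was 1.19 (adjusted p 0.406 by edgeR and 0.238 by DESeq2). UBQ10 had 3297 and 2878 CPM in elf3-1, against 4085, 4026 and 2356 CPM in Col-0, which overlap (log2 change −0.17, adjusted p 0.877). None of the 14 housekeeping genes passed in elf3-1 or in elf3-1 X ELF4-ox by edgeR, with median log2 changes of −0.19 and 0.03. RVE8 had 1.06 and 2.25 CPM in elf3-1, against 1.38, 3.02 and 1.24 CPM in Col-0 (log2 change −0.26, adjusted p 0.934). PIL1 had 2.55 and 2.65 CPM in elf3-1, against 0.376, 0.355 and 0.363 CPM in Col-0, which do not overlap, but its log2 change of 3.12 (SE 0.92) missed the threshold (adjusted p 0.117).

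In the overexpressing lines few genes near a site passed. In StELF3-ox against Col-0 it was 1 of 3104, where 0.0459% of all tested genes passed. The gene, AT2G01422, had 11, 20.4 and 18.4 CPM in StELF3-ox at 12, 22 and 27 °C, against 3.38 CPM at 22 °C and 0.355 and 0.57 CPM at 27 °C in Col-0 (log2 change 3.64, SE 0.56, adjusted p 0.00486, edgeR). The groups do not overlap, but the call was lost without either Col-0 library at 27 °C. AT2G01422 also passed in elf3-1 against Col-0 (log2 change 2.91, adjusted p 0.0221, edgeR), with 17.8 and 2.73 CPM in elf3-1, which overlap Col-0. It had 0.191 and 1.02 CPM in elf3-1 X ELF4-ox, against 0 and 0 CPM in ELF4-ox. Lines with the elf3-1 mutation thus held both high and low levels of it.

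In BdELF3-ox against Col-0, 4 genes near a site passed, where 0.204% of all tested genes passed. TIM17-1, for a mitochondrial import protein, and AT2G01422 rose, by log2 changes of 3.34 (SE 0.63) and 2.71 (SE 0.52), while AT1G51402 fell by 1.59 and AT2G28600 fell by 0.87. TIM17-1 was at low levels that overlap, with 0.338 to 5.46 CPM in BdELF3-ox, against 0.125, 0.177 and 0.622 CPM in Col-0. The sites near TIM17-1 lay in DRT112, and the site near AT2G01422 lay in PIN4. The comparisons of overexpressors share the Col-0 libraries with each other and with elf3-1. The count was 12 without BdELF3-ox at 27 °C replicate 2, whose root markers summed to 68 CPM, 1 without BdELF3-ox at 22 °C, and 0 without its 27 °C replicate 3 or without either Col-0 library at 27 °C, and DESeq2 gave 38 (1.22%, all genes 1.43%). In ELF3-ox against Col-0 none of 3104 passed by edgeR or DESeq2, where 0.0306% of all genes passed by edgeR and 0.0511% by DESeq2, and 100 (3.22%) had an unadjusted p under 0.05, against 3.66% of all genes.

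Warmth moved many genes near the sites, as it moved many genes. At 27 °C against 22 °C over all lines, 1105 of 3104 passed (35.6%), where 34.3% of all tested genes passed. Of these, 624 rose (20.1%, all genes 17.7%) and 481 fell (15.5%, all genes 16.7%). Near the peaks in both ELF3-MYC lists 310 of 729 passed (42.5%). MBF1C, a heat-stress coactivator gene, ranged from 5.06 to 49.8 CPM at 27 °C with a median of 34.5 (n = 20), against 9.02 to 18 CPM at 22 °C with a median of 10.2 (n = 15). It rose by a log2 change of 1.48 (SE 0.19, adjusted p 6.21e-06, edgeR), and 17 of 20 libraries at 27 °C were above all at 22 °C.

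Others with large changes in warmth were mostly at low levels. AT1G78750 had a median of 2.07 CPM at 27 °C, against 0.655 CPM at 22 °C (log2 change 1.52), and all 20 warm libraries were above all 15 cooler ones. WRKY45, a transcription factor gene, had medians of 9.55 and 3.71 CPM at 27 and 22 °C (log2 change 1.80). FAD8, a plastid fatty acid desaturase gene known to fall in warmth, had medians of 0.32 and 0.919 CPM at 27 and 22 °C (log2 change −1.33), and MIR167a, a microRNA gene, 0.0551 and 0.892 CPM (log2 change −2.24). At such levels a library holds few reads of the gene, which limits the precision.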

How the data were processed

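RNA of 38 seedling samples was sequenced with a 3' end kit, per the labels' protocols. The submitters' processing notes name STAR and TAIR10 for these samples. The authors deposited raw read counts per locus (4381010 to 25649275 gene counts per library, median 12076203). Between 2.64% and 35.1% of reads were not uniquely aligned and stayed out of the counts. The ChIP notes name Trimmomatic, Bowtie2, Picard, deepTools and MACS2, with no versions, per the submitters' processing notes. Each deposited peak list gives a fold ratio over local background, and the authors' MACS2 run also wrote −log10 p-values and −log10 q-values, from a −log10 p of about 1 upwards. No source used here says if MACS2 was run with a control. One StELF3-ox list, labelled 22 °C, carries another temperature in its deposited name, and the label was used.

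Peaks with identical intervals were merged and ranked within a list. Coordinates are those of the TAIR10 lists, counted from 1. Gene names and ends came from a TAIR10.1 gene table. It holds 32548 of the 32833 counted loci. No genome sequence was used here.

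Counts of all 38 libraries were fitted in R 4.3.3 with edgeR 4.0.16 (TMM, quasi-likelihood test, at least 1 CPM in at least 3 libraries, 19587 genes, 17 residual degrees of freedom), with terms for line, temperature and title prefix and adjusted p-values over all genes. The fit was first tested on simulated data, with changes planted in genes of at least 5 CPM. In elf3-1 against Col-0 it recovered 15 of 50 changes of 2-fold and 50 of 50 of 4-fold. In elf3-1 X ELF4-ox against ELF4-ox it recovered 11 of 50 and 49 of 50, so most 2-fold changes were missed in both. Alternatives were DESeq2 1.42.0, its size factors, no filter, no prefix term, other distances, stricter peaks and leaving out libraries. CPM values use TMM library sizes. Shares of sites were compared without a test.

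The members, the gene lists and the rule for named genes were chosen with earlier results of these data known. The rule named genes at the 12 strongest sites, up to 12 genes called in each elf3-1 comparison, evening complex targets, listed genes near a site, the 6 highest and 6 lowest warmth changes, the 5 highest Col-0 levels, up to 5 genes per overexpressor and sites at the edge of the rule.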

Additional observations from a re-analysis of the deposited data

How the results depend on the processing

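The number of genes near the sites called in elf3-1 against Col-0 (21) became 50 with DESeq2, 76 without the 2 libraries low in root markers and 12 with gene ends within 500 bp, and ranged from 0 to 29 when 1 library of either group, or 1 of the 4 StELF3-ox and ELF3-MYC 17 °C lists, was left out. In elf3-1 X ELF4-ox against ELF4-ox (14) it became 33, 39 and, without the title prefix term, 6, and ranged from 0 to 6. In StELF3-ox (1) it became 0 within 500 bp and ranged from 0 to 1. In BdELF3-ox (4) it became 38 with DESeq2, 12 without the libraries low in root markers, 0 within 500 bp and 7 within 2000 bp, and ranged from 0 to 12. The causes were not tested. In both elf3-1 comparisons the calls over all tested genes also fell when 1 library of either group was left out. Without a filter on low counts, 0.531% of genes near the sites and 0.442% of all genes were called in elf3-1. ELF3-ox stayed at 0 and the warmth count within 1.5 times of 1105 under the alternatives run.

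Of the 2557 sites, 1599 met an overlap of at least 50%, 0 a −log10 q of at least 5, and 27 a q under 0.05 in all 5 anti-Flag lists, an alternative chosen after seeing the data. At 50% overlap, the mean anti-Flag share was 71.3%, 95.4% of sites had a gene within 1000 bp, and nearby genes had a median of 14.1 CPM. For the 27 sites, the mean anti-Flag, anti-HA and anti-Myc shares were 92.6%, 22.2% and 28.4%, 88.9% had a gene within 1000 bp, the median level was 37.1 CPM, and 0 of 32 tested genes were called in elf3-1. Without the INPUT condition, the anti-Myc share was 22.4%. When 1 StELF3-ox or ELF3-MYC 17 °C list was left out, the sites numbered 2891 to 3584, the mean shares were 65.9 to 70.2% (anti-Flag), 17.2 to 19.4% (anti-HA) and 19.2 to 22.5% (anti-Myc), 93.3 to 94.1% had a gene within 1000 bp, the median level was 12.5 to 13.8 CPM, and 21 to 29 genes were called in elf3-1.

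No paired analysis was possible because the labels call every sample single and give no replicate numbers. Temperature and title prefix, which match some libraries across groups, were terms of the fit. Motif searches listed among the alternatives were not run, since no genome sequence was used here. The number of libraries per group limits which small changes near the sites are detectable. The depth of the ChIP samples is unknown, and weak peaks make the sites and the overlaps between lists uncertain.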
